A study of Mus musculus with 13 samples.

Results

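The miR-15/16 family was followed here through normal and leukaemic mouse T cells by its 6 members on an Agilent miRNA array: the 5 guide arms mmu-miR-15a-5p, mmu-miR-15b-5p, mmu-miR-16-5p, mmu-miR-195-5p and mmu-miR-322-5p, and the opposite arm mmu-miR-16-1-3p (the prefix for mouse is left off from here). They were taken by name, as the arms of this seed family plus 1 passenger arm, and made up 6 of the 1122 mouse miRNAs on the array. Total RNA came from C57BL/6 mice, from cells sorted by flow cytometry, with 1 array per sample. Late-stage (LS) and early-stage (ES) T-cell acute lymphoblastic leukaemia (T-ALL) were CD4+CD8+ cells from the spleens of bone marrow chimeras transformed with N1ICD, the active intracellular part of the NOTCH1 receptor, with 3 arrays each. Normal thymocytes were double negative (DN, CD4-CD8-) and double positive (DP, CD4+CD8+) cells from the thymus, with 3 arrays each, described as biological replicates. The 13th array held M295, a T-ALL cell line established from this strain and grown in a dish, labelled with the spleen as its tissue. All leukaemia came from spleen and all normal cells from thymus, so disease and organ cannot be told apart, and the vector and cell type that carried N1ICD were not given in the sources used here.

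A miRNA hairpin is cut into a guide arm, which is loaded into Argonaute, and an opposite arm that is mostly degraded. Guide arms find target transcripts mainly through bases 2 to 8, the seed, and members of this family share one. The family is known for restraining the cell cycle and survival through transcripts such as those of cyclin D1, cyclin E1 and Bcl2, and the locus that encodes miR-15a and miR-16-1 is recurrently lost in human chronic lymphocytic leukaemia. DN cells are the earlier of both thymocyte stages, and DP cells follow them.

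The guide arms are shown first because the seed (bases 2 to 8, in capitals) is what makes them a family. The sequences are those of RefSeq, build GRCm38.p6, written 5′ to 3′, and all 6 members were matched there, miR-195-5p under its newer name miR-195a-5p.
miR-15a-5p: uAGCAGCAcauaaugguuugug
miR-15b-5p: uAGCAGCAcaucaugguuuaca
miR-16-5p: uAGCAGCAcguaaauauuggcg
miR-195-5p: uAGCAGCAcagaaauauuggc
miR-322-5p: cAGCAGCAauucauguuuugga
All 5 carry the same 7 bases, and 6 array miRNAs do, the other being miR-497-5p. Counted from 1 at the 5′ end, miR-195-5p differs from miR-16-5p by 2 of 21 bases, G10A and U11G, and miR-15a-5p differs from miR-15b-5p by 4 of 22, C12A, A20G, C21U and A22G. Whether probes for one also bind the other was not tested.

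The genes lie in pairs. Mir15a (mature arm at chr14:61632075-61632096, minus strand) neighbours Mir16-1 (chr14:61631936-61631957, minus strand), and Mir15b (chr3:69009775-69009796, plus strand) neighbours Mir16-2 (chr3:69009918-69009939, plus strand), with 66 bases between the hairpins of Mir15b and Mir16-2. Both Mir16 genes give the same mature miR-16-5p, so the array reads their sum. Mir195a (chr11:70235062-70235082, plus strand) lies 241 bases from Mir497, and Mir322 (chrX:53054306-53054327, minus strand) 200 bases from Mir503.

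Levels are log2 signals, scaled so that 0 is each array's 75th percentile, taken over the 108 mouse miRNAs that every 1 of the 12 primary arrays measured above background. Values below -7.59 were set to that floor, and no order is read among them. Probes differ in brightness, so a level of 1 miRNA says nothing against that of another. The 3 members miR-15a-5p, miR-15b-5p and miR-16-5p were above background on all 12 primary arrays and on M295. The other 3 were dim. Among 229 miRNAs tested, miR-195-5p and miR-16-1-3p had entered only through DP and miR-322-5p only through DN and DP, so a lower level elsewhere is partly built into their entry.

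The cell identity markers fitted the labels in part. The haematopoietic miR-142-3p was above background on every array, with group means of 2.41 (LS), 2.60 (ES), 2.28 (DN) and 2.65 (DP). The thymic miR-181a-5p, a miRNA of T-cell receptor sensitivity, averaged -0.64 in LS, -1.32 in ES and -0.83 in DN, against 1.88 in DP. Of the same marker list, miR-181b-5p was likewise highest in DP, at -0.71 in LS, -1.55 in ES, -0.97 in DN and 0.36 in DP. The remaining one, miR-128-3p, instead set DN (1.22) near DP (1.60), with LS at -0.18 and ES at -0.26. Red blood cell miRNAs, 2 of 3 on the array above background somewhere, had summed log2 levels of -3.39 to 0.69 in LS, -5.25 to -1.35 in ES and -0.40 to 0.03 in DN, against -5.52 to -4.94 in DP. Myeloid miR-223-3p was at 2.85 on the ES 3 array and at most at -5.93 on the other T-ALL arrays, while DN lay between -5.31 and -4.89. No stromal marker of 4 was above background on any array, and the endothelial miR-126-3p was above it only in DN (-4.66). Mature lymphocyte miRNAs (2 of 2 measured) had summed levels of -2.69 to -1.42 in LS, -2.72 to -0.69 in ES and -3.38 to -2.89 in DN, against -2.29 to -2.13 in DP. That sum joins opposite patterns. miR-150-5p averaged -5.06 in LS, -4.25 in ES and -4.58 in DN, against -2.47 in DP. miR-342-3p averaged -2.40 in LS, -2.34 in ES and -3.92 in DN, against -4.80 in DP. Epithelial miRNAs (2 of 4 above background somewhere) summed to -5.35 to -4.74 in LS, -5.59 to -5.12 in ES and -5.59 in DN, against -5.59 to -5.57 in DP. On the DN arrays all 4 were at the floor, so -5.59 is the floor summed over 4 miRNAs. The red blood cell sums also include miRNAs at the floor. ES 1 was the noisiest array (SD of negative controls 18.7 intensity units, at most 7.11 elsewhere), with 115 miRNAs above background.

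The bright guide arms were lower in both leukaemia stages and in DN cells than in DP cells. In LS, ES and DN the signals of miR-15a-5p, miR-15b-5p and miR-16-5p were 1.61 to 1.97 times lower than in DP. No array of LS, ES or DN reached the lowest DP array for any of the 3. Bulk RNA cannot tell fewer cells of a kind from less RNA per cell, and a signal on this scale is relative to the other miRNAs of its array.

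miR-15b-5p, encoded on chromosome 3, gave 1.76, 1.97 and 1.71 on the LS arrays, 1.75, 1.89 and 1.90 on the ES arrays, and 1.75, 1.85 and 1.73 on the DN arrays, against 2.77, 2.77 and 2.59 on the DP arrays. LS, ES and DN occupied one narrow band, and the DP arrays stood apart above it. The log2 fold change was -0.90 in LS against DP (SE 0.15, limma adjusted p = 9.43e-04), -0.87 in ES against DP (SE 0.15, adjusted p = 0.00131) and -0.94 in DN against DP (SE 0.15, adjusted p = 0.00128).

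miR-16-5p, the product of both clusters, gave 1.49, 1.53 and 1.37 in LS, 1.32, 1.36 and 1.71 in ES, and 1.19, 1.51 and 1.38 in DN, against 2.19, 2.38 and 2.27 in DP. ES 3 was the highest array outside DP. The log2 fold changes were -0.81 in LS (adjusted p = 0.00314), -0.82 in ES (adjusted p = 0.00398) and -0.92 in DN (adjusted p = 0.00287), each against DP with an SE of 0.17 in limma.

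miR-15a-5p, the chromosome 14 partner of miR-16-1, gave 0.23, 0.39 and 0.14 in LS, 0.25, 0.28 and 0.57 in ES, and 0.05, 0.13 and 0.03 in DN, against 1.12, 1.19 and 0.85 in DP. ES 3 came nearest to DP, and DP 3 was the lowest DP array. The limma log2 fold changes were -0.80 in LS (adjusted p = 0.00323), -0.69 in ES (adjusted p = 0.00906) and -0.98 in DN (adjusted p = 0.00191), each with an SE of 0.17.

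Each of these 3 members had 2 probes, and both probes were lower in all 3 comparisons with DP. Their log2 fold changes per probe ran from -0.68 (ES against DP, miR-15a-5p) to -1.01 (DN against DP, miR-15b-5p).

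**Figure D1:**
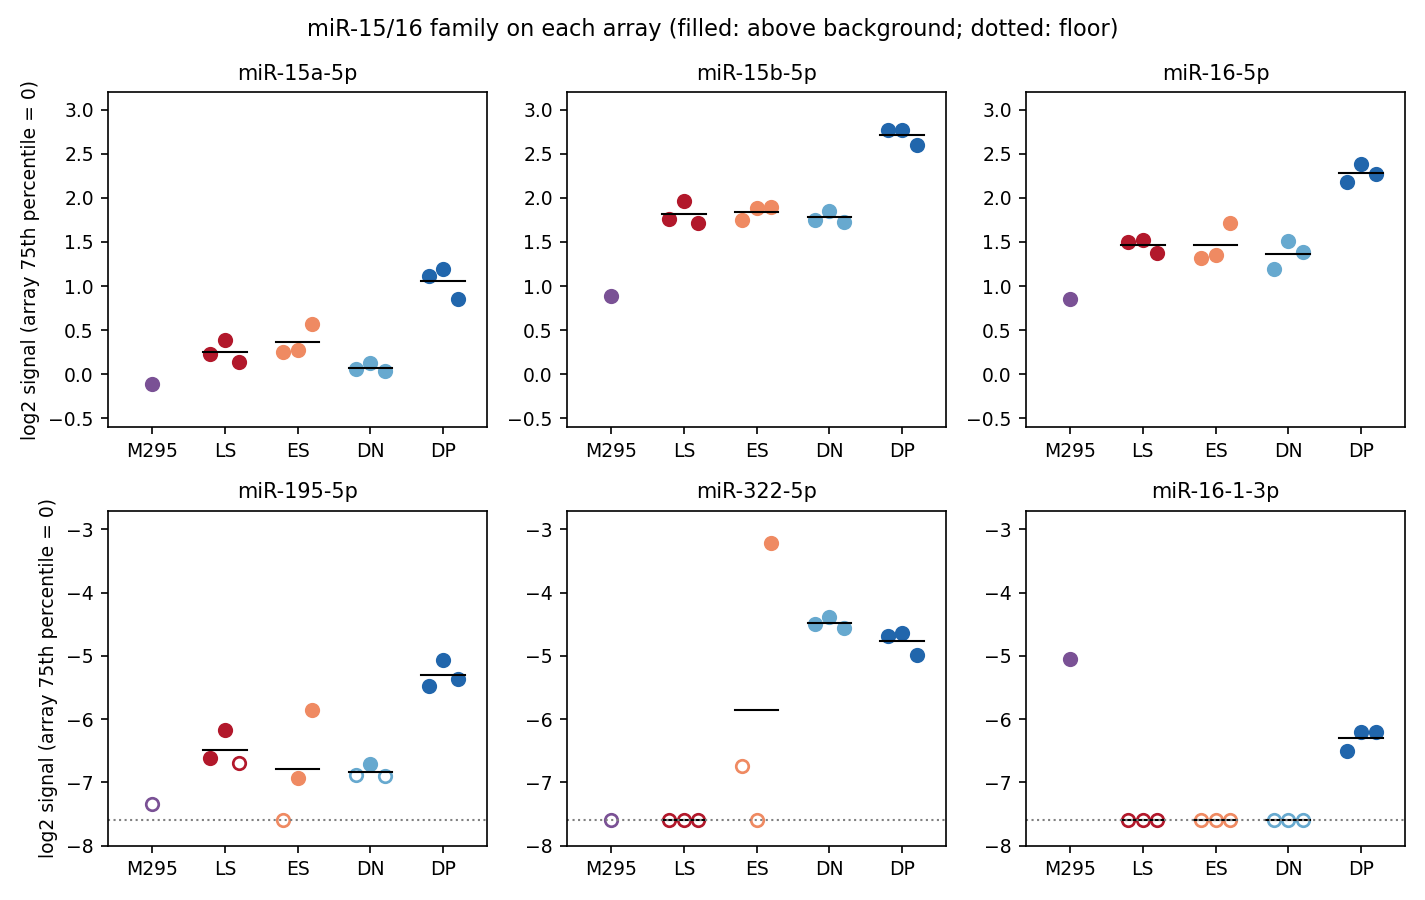
Log2 signal (vertical, 0 = 75th percentile of the array) of the 6 family members on each array of M295, LS, ES, DN and DP. Points are arrays, horizontal bars are group means of 3 arrays, filled points are above background and the dotted line is the floor at -7.59. In the upper row the 3 DP arrays lie above every other array.

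These calls must be read against how much of the array moved. In LS against DP all 3 bright members were called lower, while 26.2% of the 229 tested miRNAs were called lower and 58.5% were called in either direction. In ES against DP all 3 were called lower, beside 25.3% of all tested called lower and 46.3% in either direction. In DN against DP all 3 were called lower, beside 18.8% called lower and 29.3% in either direction. Over the 6 members, 6 were called lower in LS, 5 in ES and 5 in DN, with medians of -1.04, -0.97 and -0.96 beside 0.19, 0.07 and 0.15 over all tested. Those counts and medians include the dim members, whose entry favoured DP.

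The size of the differences with DP depended on the scale. With arrays scaled over all mouse miRNAs, the 3 bright members were at -0.15 to -0.33 in ES and -0.62 to -0.68 in DN, and none of those calls held. On that scale each array is divided by a dim signal, since only 115 to 244 of the 1122 miRNAs were above background on a primary array. It also moved the median of all tested miRNAs to 0.59 in ES against DP and 0.45 in DN against DP. Relative to those medians, the members lay at -0.74 to -0.92 in ES and at -1.07 to -1.13 in DN. In LS against DP they stayed called, at -1.0 to -1.10. Slide was the other split of the arrays. Slide 1 held 1 DN and 1 DP array, so there DN against DP is 1 array against 1 and every comparison rests on DP 1. Within it the 3 members were at -0.67 to -0.91 in LS, -0.85 to -0.96 in ES and -0.99 to -1.06 in DN. On slide 2, ES 3 and LS 3 each stood alone for their group, and the members were at -0.88 to -0.97 in LS, -0.45 to -0.79 in ES and -0.88 to -0.94 in DN. These within-slide values are given for their direction and size, not for their calls.

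**Figure D2:**
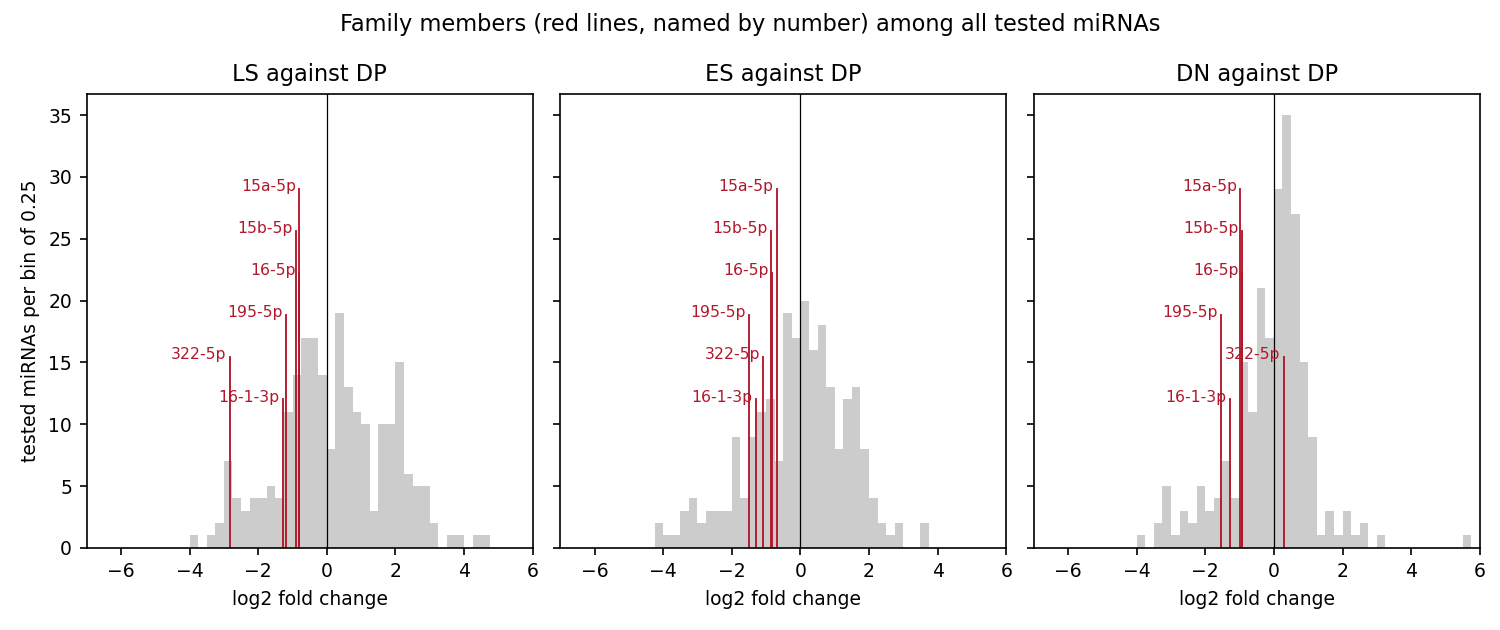
Histogram of log2 fold changes (horizontal) of the 229 tested miRNAs in bins of 0.25, for LS, ES and DN against DP, with the family members as red lines named by number. The 3 bright members lie between -0.69 and -0.98 in all panels, left of the medians of all tested miRNAs (0.19, 0.07 and 0.15).

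The order of the group means put DP first for all members but miR-322-5p. For miR-15b-5p and miR-16-5p the remaining 3 groups overlapped, and for miR-15a-5p the LS and ES arrays overlapped while the lowest LS array (0.14) was just above the highest DN array (0.13). In ES against DN the bright members differed by 0.07 to 0.30 and none was called or had an unadjusted p under 0.05, against 6.55% of all tested called in either direction. The widest of these, miR-15a-5p at 0.30, had a 95% interval of -0.09 to 0.68 (limma adjusted p = 0.265). In LS against DN they differed by 0.04 to 0.18 and none was called or had an unadjusted p under 0.05, against 33.2% of all tested, with an interval for miR-15a-5p of -0.20 to 0.56 (adjusted p = 0.464). With scaling over all mouse miRNAs the sign of LS against DN turned for all 3, to -0.32 for miR-15a-5p, -0.46 for miR-15b-5p and -0.40 for miR-16-5p, none called, where the median of all tested was -0.31. Summed red cell levels were higher in DN and in LS than in DP, and ranged widely in LS and ES, as given above. Their part in these differences, and in those with DP, was not tested.

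Between disease stages no bright member was called either. In LS against ES, limma gave -0.11 for miR-15a-5p (95% interval -0.50 to 0.27, adjusted p = 0.740), -0.03 for miR-15b-5p (-0.37 to 0.31, adjusted p = 0.964) and 0.00 for miR-16-5p (-0.38 to 0.39, adjusted p = 1). Of all 229 tested, 2.62% were called in this comparison and 34 had an unadjusted p under 0.05. These intervals hold for the scale used here. With scaling over all mouse miRNAs LS against ES was -0.86, -0.77 and -0.74 for miR-15a-5p, miR-15b-5p and miR-16-5p, none called (limma adjusted p = 0.0941, 0.155 and 0.13), where the median of all tested was -0.38.

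Taking both stages together against both thymocyte stages gave smaller differences, since DN lay with the leukaemia. miR-15b-5p averaged 1.83 ± 0.10 over 6 T-ALL arrays and 2.25 ± 0.52 over 6 thymocyte arrays (SD), a log2 fold change of -0.42 (SE 0.11, limma adjusted p = 0.00860). miR-16-5p averaged 1.46 ± 0.14 in T-ALL and 1.82 ± 0.52 in thymocytes (SD, n = 6 arrays each), at -0.36 (limma adjusted p = 0.0305). With scaling over all mouse miRNAs neither call held, at an adjusted p of 0.170 for miR-15b-5p and 0.191 for miR-16-5p. The call of miR-16-5p also ended with slide as a block (0.0702) and without DN 2, DN 3, DP 2, ES 1, ES 2, LS 1 or LS 3 (adjusted p up to 0.0789). miR-15a-5p, at -0.25, was not called (adjusted p = 0.0968), but was without ES 3 (-0.30, adjusted p = 0.0232), with no filter on dim miRNAs (0.0265) and with an intensity trend in the variance (0.0497). The T-ALL and thymocyte arrays overlapped for all 6 members. Of the bright members 2 of 3 were called lower, beside 25.8% of all tested called lower and 57.2% called in either direction. Over the 6 members 4 were called lower and the median was -0.50, against -0.12 over all tested, but the other 2 calls are miR-322-5p and miR-16-1-3p, whose entry through thymocyte groups favours that direction. miR-195-5p, at -0.58, was not called (limma adjusted p = 0.0773), and its entry through DP favours the same direction. It was called with scaling over all mouse miRNAs (0.0192), by quantile normalization (0.00442), on the deposited values (0.00520) and without ES 3 (0.00203). With normexp background correction it was at -0.16 and not called (0.273).

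**Figure D3:**
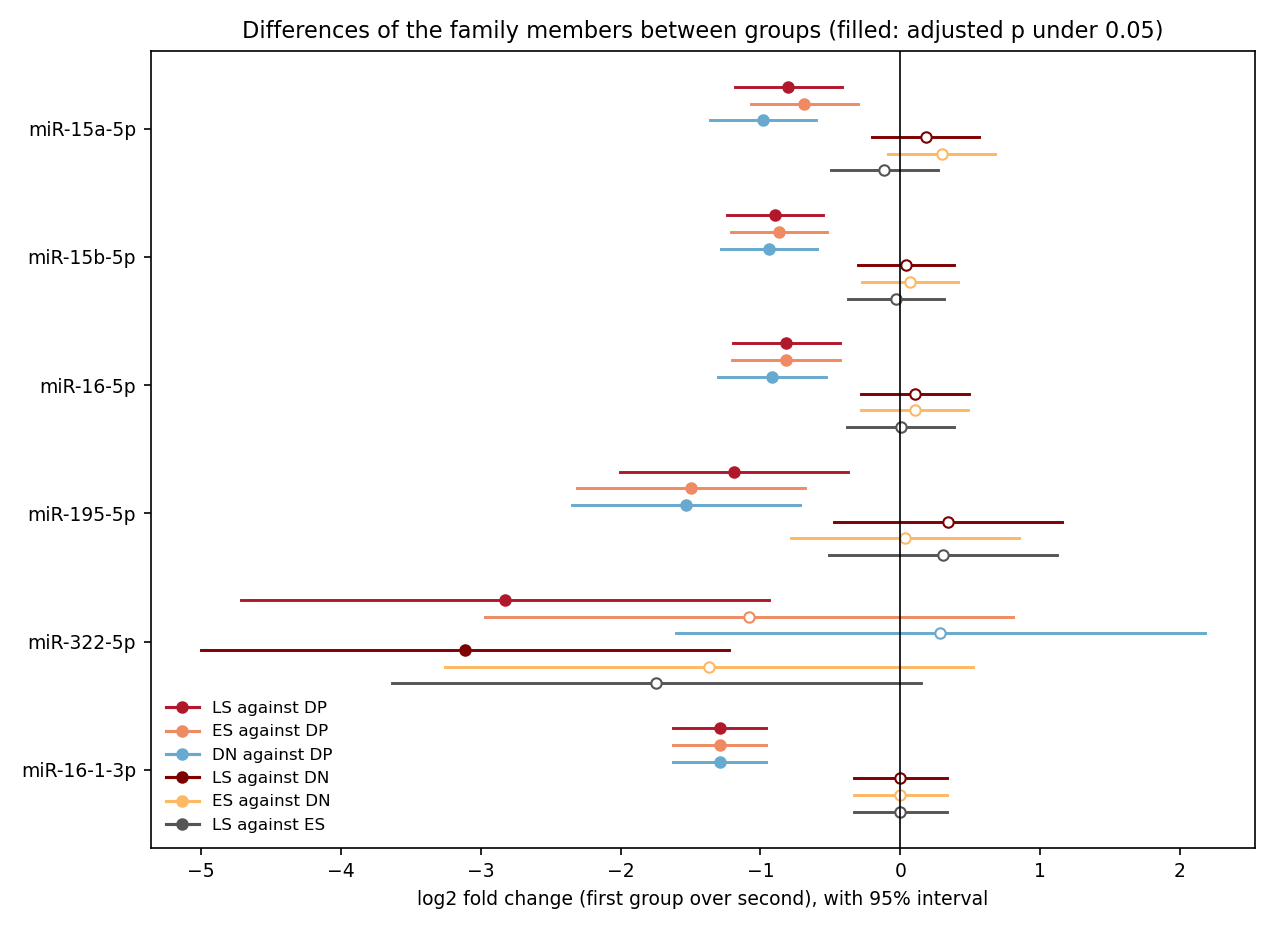
Log2 fold changes (horizontal, first group over second) of the 6 members in 6 comparisons between groups, with 95% intervals from limma. Filled points have an adjusted p under 0.05. The 3 bright members are lower in LS, ES and DN than in DP, and their differences among LS, ES and DN span 0.

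The 3 bright members, which come from different hairpins, were also compared with each other. Within an array, the difference between 2 members does not depend on how the array was scaled by a factor. miR-15a-5p minus miR-15b-5p was -1.54, -1.58 and -1.57 on the LS arrays and -1.50, -1.61 and -1.32 on the ES arrays, against -1.70, -1.72 and -1.70 in DN and -1.66, -1.58 and -1.75 in DP. The mean was -1.52 ± 0.10 in T-ALL and -1.68 ± 0.06 in thymocytes (SD, n = 6 each), 0.16 higher in T-ALL by a two-sided exact permutation test (p = 0.00433, 0.0130 adjusted over 3 pairs). The 2 members thus did not shift by equal amounts, at -0.25 for miR-15a-5p and -0.42 for miR-15b-5p in T-ALL against thymocytes. On quantile-normalized values the difference was 0.30 and on the deposited log2 values 0.32, both with an adjusted exact permutation p of 0.162. The call thus did not hold on either of these sets of values, although the difference was larger there.

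The other pairs did not pass. miR-15a-5p minus miR-16-5p differed by 0.10 (T-ALL -1.15 ± 0.08, thymocytes -1.26 ± 0.14, SD, n = 6 each, exact permutation p = 0.162, adjusted 0.244). miR-15b-5p minus miR-16-5p differed by -0.06 (T-ALL 0.36 ± 0.13, thymocytes 0.42 ± 0.12, SD, n = 6 each, exact permutation p = 0.407, adjusted 0.407). The smallest p this design allows is 0.00216.

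**Figure D4:**
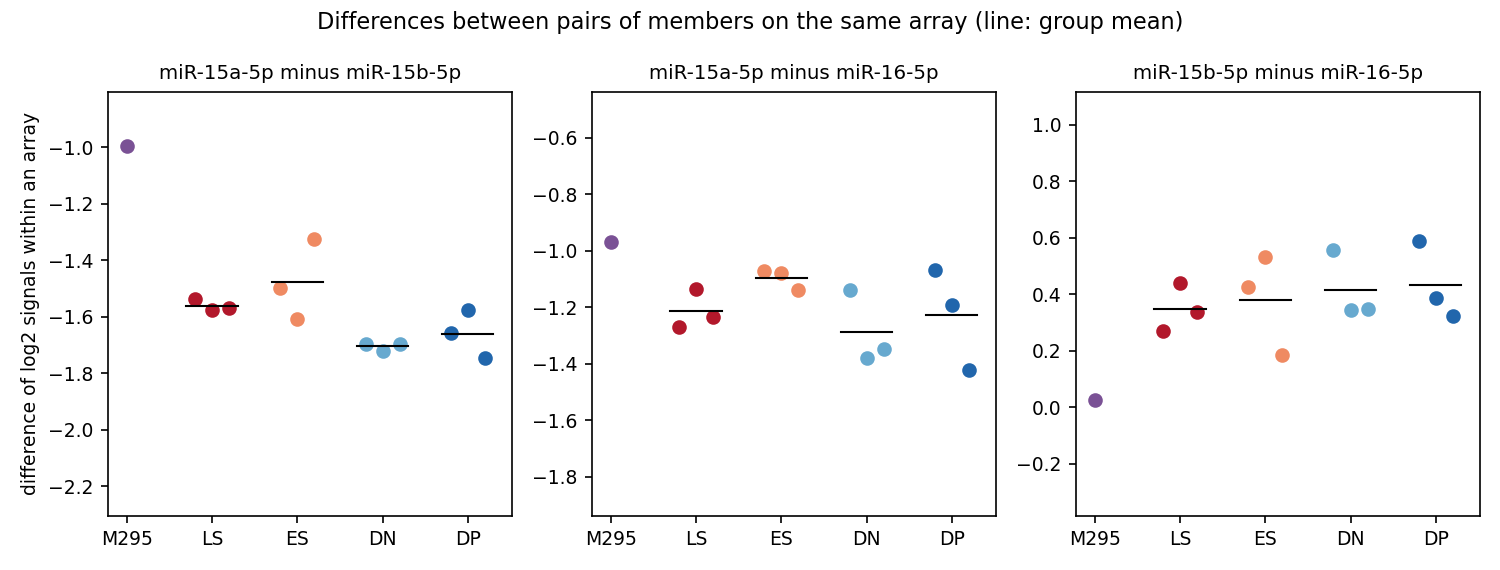
Difference of log2 signals between pairs of bright members on the same array (vertical), for M295, LS, ES, DN and DP, with points for arrays and lines for group means. miR-15a-5p minus miR-15b-5p averages -1.52 over T-ALL arrays and -1.68 over thymocyte arrays, with overlap, and M295 lies at -1.0.

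The dim member miR-195-5p, from chromosome 11, was highest in DP. It gave -6.61, -6.17 and -6.69 in LS, -7.59 (the floor), -6.93 and -5.86 in ES, and -6.89, -6.70 and -6.89 in DN, against -5.47, -5.07 and -5.36 in DP. It was above background on 2 LS, 2 ES and 1 DN array, against all 3 DP arrays, and the groups did not overlap with DP. The limma log2 fold changes against DP were -1.19 in LS (adjusted p = 0.0190), -1.50 in ES (adjusted p = 0.00848) and -1.53 in DN (adjusted p = 0.00987), each with an SE of 0.37. Entry of this member into the test through DP alone favoured that direction. The LS call did not hold when DP 2, LS 1 or LS 3 was left out, with adjusted p-values of 0.0503 to 0.0627. With all array miRNAs tested, without the filter on dim ones, the ES and LS calls of miR-195-5p ended (limma adjusted p = 0.0598 and 0.117). Only 1 of its 2 probes ever left the floor. With normexp background correction all 3 calls ended, at -0.28 in LS, -0.15 in ES and -0.11 in DN. That correction adds an offset of 50 intensity units, which shrinks log2 differences of dim miRNAs, so these losses are partly built in. The intensities of miR-195-5p were 11.4 to 37.2 units on the arrays of LS, ES 2, ES 3 and DN, and 40.9 to 67.5 in DP.

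miR-322-5p, the mouse counterpart of human miR-424 from the X chromosome, was the one member that was not lower in DN than in DP. In LS all 3 arrays were at the floor, and ES gave -6.74, -7.59 (the floor) and -3.21, against -4.49, -4.38 and -4.57 in DN and -4.68, -4.63 and -4.98 in DP. Every thymocyte array was above background, whereas of the T-ALL arrays only ES 3 was, and ES 3 was the highest of all 12. In intensity units ES 3 read 234 and LS 2.13 to 9.01, against 57.2 to 73.0 in DN and 53.1 to 91.1 in DP. Both of its probes shared this pattern.

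Because no LS array was above background, the difference of miR-322-5p has only a bound: it was at least 6.75-fold lower in LS than in DP (limma adjusted p = 0.0173) and at least 8.24-fold lower in LS than in DN (adjusted p = 0.0195). Such bounds set the mean of the bright group over the higher of the lowest signal above background and the probe's own signal on each dim array. The LS against DP call ended without DP 1 (adjusted p = 0.0519), and the LS against DN call without DN 1, DN 2, DN 3 or LS 1 (up to 0.0611). This was the 1 member of 6 called in LS against DN, beside 7.42% of all tested called lower. Under normexp correction, with the same offset of 50 units, LS against DP was -0.75 and was not called (limma adjusted p = 0.0633). LS against DN was -1.06 there and stayed called (adjusted p = 0.0349). With all array miRNAs tested, without the filter on dim ones, the adjusted p of LS against DP was 0.133. In DN against DP miR-322-5p was at 0.29 (limma adjusted p = 0.822), with every DN array above every DP array. The fit pools the spread of the 4 groups, and ES was by far the widest. The SD was 2.33 in ES, against 0.09 in DN, 0.19 in DP and 0 in LS, which lay at the floor. All adjusted p-values of this member carry that ES spread, also where ES is not compared.

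In ES, miR-322-5p turned on a single array. ES against DP was -1.08 and ES against DN -1.37 with all 3 arrays, neither called by limma (adjusted p = 0.306 and 0.282). Without ES 3 no ES array was above background, and ES was at least 4.34-fold lower than DP and at least 5.30-fold lower than DN. The limma adjusted p-values were then 6.14e-05 and 9.35e-05, and they rest on values at or near the floor. T-ALL against thymocytes was -2.10 (limma adjusted p = 0.0130), and T-ALL was at least 5.98-fold lower without ES 3. Under normexp correction that comparison was -0.50 and was not called (adjusted p = 0.0824). The ES 3 array also held the outlying level of myeloid miR-223-3p given above, and its part in the miR-322-5p level was not tested. miR-503-5p, which neighbours miR-322 in the genome, was above background on ES 3 alone (-5.88) and at the floor on the other 12 arrays. LS against ES, at -1.74, was not called (adjusted p = 0.348).

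The opposite arm miR-16-1-3p was above background on DP arrays and on M295 alone. Its hairpin, Mir16-1 (chr14:61631880-61631972, minus strand, 93 bases), is shown with both mature arms in capitals, the guide arm miR-16-5p first, because they are the products compared here.
Mir16-1: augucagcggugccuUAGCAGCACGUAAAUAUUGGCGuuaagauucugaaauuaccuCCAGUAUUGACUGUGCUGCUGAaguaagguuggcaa
Every LS, ES and DN array was at the floor, against -6.50, -6.21 and -6.20 in DP. In intensity units the LS, ES and DN arrays read -3.10 to 4.38 and the DP arrays 20.3, 30.6 and 22.9. It was at least 2.33-fold lower in LS, at least 1.76-fold lower in ES and at least 2.17-fold lower in DN than in DP (limma adjusted p = 8.95e-05, 1.12e-04 and 1.46e-04). With 9 of 12 arrays at the floor these p-values rest on the spread of the DP arrays and on limma's shared variance. Entry into the test through DP alone also favoured this direction. Of its 4 probes 1 was above background in DP. Under normexp correction, with the same offset of 50 units, the differences were -0.25 in LS, -0.09 in ES and 0.01 in DN, none called.

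Other arms of the family hairpins are shown because 3 of them repeated that pattern. The capitals mark a stretch of 8 bases that these arms share, found by comparing them after their levels had been seen.
miR-16-1-3p: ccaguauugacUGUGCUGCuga
miR-15a-3p: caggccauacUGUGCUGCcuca
miR-16-2-3p: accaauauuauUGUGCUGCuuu
miR-195-3p: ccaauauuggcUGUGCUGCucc
miR-15b-3p: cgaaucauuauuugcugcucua
miR-15a-3p was at the floor on all LS, ES and DN arrays, against -6.97, -6.52 and -6.40 in DP. miR-16-2-3p was likewise at the floor in LS, ES and DN, against -6.30, -6.04 and -5.96 in DP. miR-195-3p was at the floor in LS, ES and DN, against -6.30, -5.96 and -5.87 in DP. Few of these DP values were above background (0, 1 and 2 of 3 arrays), so none of the 3 was tested. miR-15b-3p was flat, with group means of -6.45 (LS), -6.39 (ES), -6.42 (DN) and -6.33 (DP), and was called in no comparison. miR-322-3p was at the floor on all 13 arrays. Neither holds the stretch, but it was read from arms picked for their pattern, so its absence here tests nothing.

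**Figure D5:**
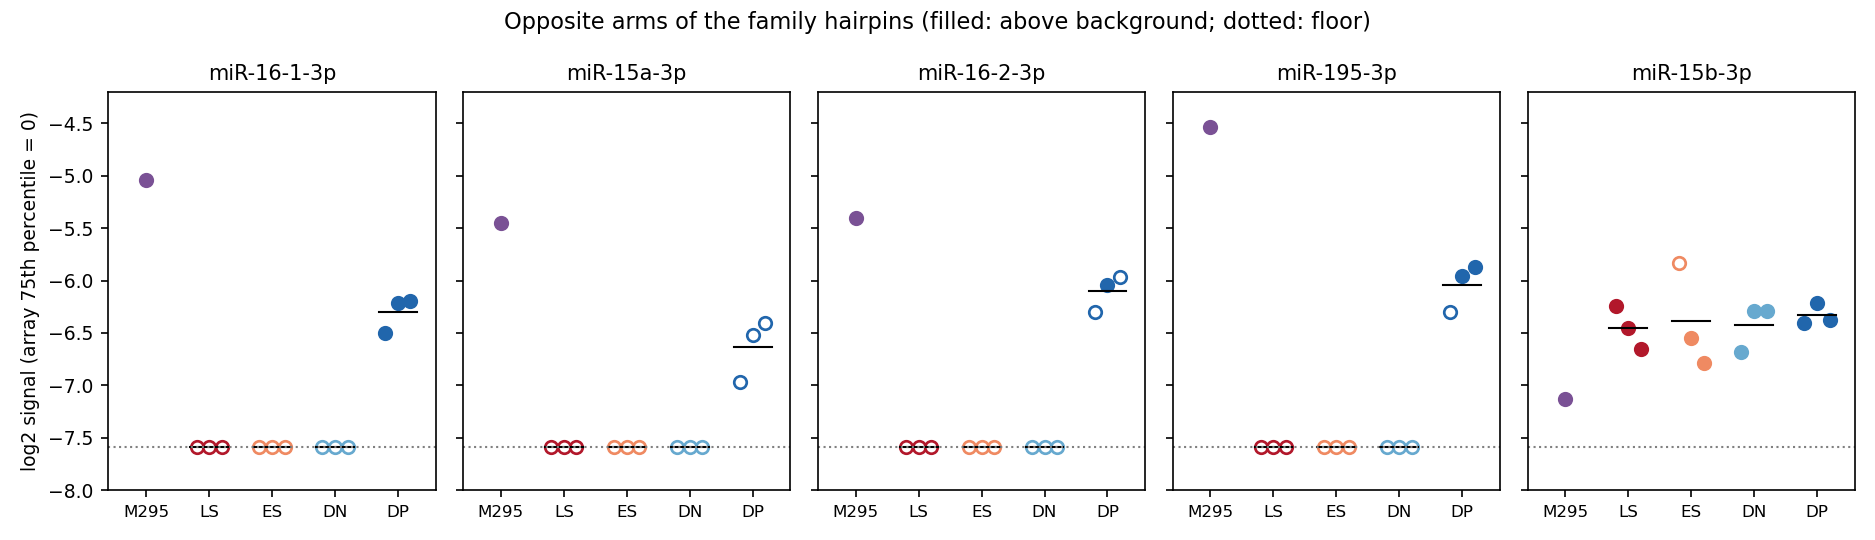
Log2 signal (vertical, 0 = 75th percentile of the array) of 5 opposite arms on each array of M295, LS, ES, DN and DP. Bars are group means of 3 arrays, filled points are above background, and the dotted line is the floor. In these 5 panels, outside miR-15b-3p, points leave the floor only in DP and M295.

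The list of relatives held 18 further miRNAs on the array, namely opposite arms, genomic neighbours and the remaining same-seed miRNA, of which 14 were above background on no primary array. Only miR-15b-3p was tested, and 0 of 1 was called in either direction in any of the 7 comparisons with limma. miR-497-5p, which shares both seed and cluster with miR-195, was at the floor on all 13 arrays.

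The line M295 had the lowest levels of the bright guide arms on any array and the highest of 4 opposite arms, but not of miR-15b-3p or miR-322-3p. miR-15a-5p was -0.11 on M295, against 0.14 to 0.57 on the 6 primary T-ALL arrays. miR-15b-5p was 0.88, against 1.71 to 1.97, and miR-16-5p was 0.86, against 1.32 to 1.71. M295 therefore lay below every primary T-ALL array for all 3, by 1.34-, 1.93- and 1.52-fold from their mean, with 1 array and no estimate of its spread. Of all tested miRNAs, 25.8% were below and 23.1% above every primary T-ALL array on M295.

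Set against primary T-ALL, miR-15b-5p was further down on M295 than miR-15a-5p was: the within-array difference of miR-15a-5p minus miR-15b-5p was -1.0, against -1.61 to -1.32 on primary T-ALL arrays. miR-322-5p was at the floor and miR-195-5p at -7.33, not above background. miR-16-1-3p was above background at -5.04 (66.3 intensity units, all 4 probes), at least 4.85-fold above the primary T-ALL arrays. The opposite arms miR-15a-3p (-5.45), miR-16-2-3p (-5.41) and miR-195-3p (-4.54) were also above background there, while miR-15b-3p was at -7.13.

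The miRNAs closest in pattern to the mean of the 3 bright members were found by root mean square difference over the 12 primary arrays, after centring each miRNA on its own mean. They were miR-30d-5p (0.165), miR-30e-5p (0.180), miR-423-5p (0.200), miR-466f-5p (0.205) and miR-30e-3p (0.208), against a median of 0.813 over 223 candidates. The bright members lay 0.065 to 0.068 from that mean, which they themselves form, so their distances cannot be set against the others. Of the dim members, not part of that mean, miR-16-1-3p lay at 0.229, miR-195-5p at 0.413 and miR-322-5p at 1.46. miR-30e-5p, of another seed family, had log2 fold changes of -1.0 in LS, -1.10 in ES and -0.80 in DN against DP. miR-466f-5p was at the floor on every LS, ES and DN array, so its closeness rests on the floor. The list was not stable: 1 of the 5 names was the same after quantile normalization, normexp correction or on the deposited value table.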

How the data were processed

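Total RNA from 13 samples was hybridised in 1 colour (Cy3) to Agilent mouse miRNA arrays. Spot intensities were extracted by the authors with Agilent Feature Extraction 10.7.3.1, per the file headers, which subtracts local background and applies no scaling between arrays. The authors also deposited log2 values of the same arrays, whose columns all have a median of 3.29 and rank miRNAs as the scanner's total signals do. The submitters' processing notes name RMA and affy among others, with no role given. The centring of these values is not stated, and they served as an alternative.

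Control and outlier spots (4.03 to 8.60% of spots) were left out, and no spot was saturated. Intensities were averaged per probe and per miRNA and divided by the array's 75th percentile over the 108 miRNAs above background on all 12 primary arrays. They were then floored at the median over arrays of the lowest scaled signal above background (log2 -7.59), and log2 was taken. A miRNA was above background where at least 50% of the spots of 1 probe were well above background by the scanner's call. The 229 miRNAs above background on all 3 arrays of a group were tested with limma 3.58.1 in R 4.3.3, with Benjamini-Hochberg adjustment over all 229 and a threshold of 0.05. The fit pooled the 4 groups of primary cells. Within-array differences between members used two-sided exact permutation tests. The number of arrays limits the precision, and p-values measure the spread between these arrays.

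The rule for names was all 6 members, relatives above background in a group, the 5 miRNAs closest in pattern and the marker miRNAs. The members and lists were chosen with earlier results of these data known. Checks on simulated data preceded the fits. Same-numbered samples were checked for pairing by the correlation of their deviations: every number exceeded 0.1 only between LS and DP (0.216, 0.183 and 0.497), with nothing in the labels on what a number marks. Sequences were taken from RefSeq, GRCm38.p6, where 916 of 1122 array miRNAs matched. Alternatives were other scalings, normexp background correction with an offset of 50, filters, a variance trend, slide, a replicate block and leaving out arrays.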

Additional observations from a re-analysis of the deposited data

How the results depend on the processing

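The number of arrays (3 a group) and signal over background limit these results, most for the dim members. The counts of members called lower fell to 2 in ES and 2 in DN against DP with scaling over all mouse miRNAs, a scale set by dim signals. With normexp, whose offset shrinks the differences of dim members, they were 3 in LS, 3 in ES and 3 in DN against DP and 2 in T-ALL against thymocytes. Within slide 1 they were 2 in ES and 2 in DN against DP, 2 in T-ALL against thymocytes and 0 in LS against DN, where DN 1 and DP 1 stand alone for their groups. Within slide 2, 2 members were called higher in ES against DN and 2 lower in LS against ES, where ES 3 and LS 3 stand alone for their groups and are assumed to vary like the others. Testing only miRNAs above background on all 12 arrays removed the dim members by construction. Leaving out 1 array at a time gave 5 to 6 in LS against DP, 5 to 6 in ES against DP, 5 to 5 in DN against DP, 0 to 1 in ES against DN, 0 to 1 in LS against DN, 0 to 1 in LS against ES (without ES 3, miR-195-5p) and 3 to 6 in T-ALL against thymocytes. With both ES 1 and ES 3 left out, an alternative chosen after seeing the data, 1 was called in ES against DN. Within-array differences ranged from 0.12 to 0.18, 0.07 to 0.14 and -0.09 to -0.02 for miR-15a-5p minus miR-15b-5p, miR-15a-5p minus miR-16-5p and miR-15b-5p minus miR-16-5p. The first was 0.30 (quantile) and 0.32 (deposited table), neither called, and the second -0.035 within slide 1. Of the 5 closest miRNAs, 1 was the same under quantile, normexp and the deposited table. The cause was not tested.

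The call counts over all tested miRNAs moved as well: with scaling over all mouse miRNAs, 42 were called in ES against DN, against 15 in the reported fit, and normexp called 0 there. LS against DP had 60 called lower and 74 higher in the reported fit, 64 and 65 with scaling over all miRNAs, and 81 and 63 by quantile.

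Among single members, the sign turned in these cases, called only where stated. In LS against DN with scaling over all mouse miRNAs, miR-15a-5p was -0.32, miR-15b-5p -0.46, miR-16-5p -0.40 and miR-195-5p -0.16, and in LS against ES miR-16-5p was -0.74 and miR-195-5p -0.23. With quantile normalization miR-15b-5p was -0.043 in ES against DN and 0.17 in LS against ES, and miR-195-5p was -0.23 in ES against DN and -0.033 in LS against DN. Under normexp miR-16-1-3p was 0.012 in DN against DP, miR-322-5p 0.070 in ES against DP, and miR-195-5p -0.043, -0.18 and -0.13 in ES against DN, LS against DN and LS against ES. On the deposited table miR-15b-5p was 0.14 in LS against ES and miR-195-5p -0.064 in ES against DN. Within slide 1 miR-15a-5p was 0.044 and miR-15b-5p 0.048 in LS against ES, and miR-195-5p -0.37 in ES against DN. Within slide 2 miR-15b-5p was -0.079 and miR-16-5p -0.069 in LS against DN, miR-16-5p -0.34 and miR-195-5p -0.83 (called) in LS against ES, and miR-322-5p 1.27 in ES against DN and 1.60 in ES against DP (both called). Leaving out 1 array at a time, miR-16-5p ranged from -0.068 (without ES 1) to 0.13 (without ES 3) in LS against ES and from -0.021 to 0.18 in ES against DN. miR-195-5p ranged from -0.092 to 0.77 in LS against ES (called without ES 3) and from -0.43 to 0.43 in ES against DN. miR-15b-5p ranged from -0.039 to 0.089 in LS against DN and from -0.11 to 0.022 in LS against ES. Without ES 1 and ES 3 together, ES against DN was -0.0034 for miR-16-5p and -0.10 for miR-195-5p.

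With the replicate number as a block, members called numbered 6 in LS, 5 in ES and 5 in DN against DP, 4 in T-ALL against thymocytes, 1 in LS against DN, 0 in ES against DN and 0 in LS against ES, as without it, and 6 in LS against DP in a paired fit of LS and DP arrays alone. No other call changed with the block.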

Other observations

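The 4 opposite arms that left the floor only in DP and M295 belong to a wider set, noticed after the values were seen and given without a test. Of 1122 array miRNAs, 22 (1.96%) were above the floor on all 3 DP arrays and on no LS, ES or DN array, and all 22 of these were also above the floor on M295, as were 337 (30%) of all array miRNAs. Of the 916 array miRNAs matched to a RefSeq sequence, 4 hold the stretch UGUGCUGC, and these are the 4 arms from which it was read, so its share of 4 of 4 (100%) follows from how it was found. Of the 912 without it, 16 (1.75%) showed the same pattern.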
